A study of Homo sapiens with 60 samples.

Results

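Pinelliae Tuber (PT) is the dried tuber of Pinellia, used in East Asian medicine. Its water extract was given to A549 cells (a human cell line from a lung carcinoma) at 500 µg/mL (high), 100 µg/mL (medium) and 20 µg/mL (low) for 24 h. The comparison described here sets the 3 high libraries against the 6 medium and low libraries, which is 9 of the 60 libraries of the series. They were chosen by their labels, and all 9 carry the same first number (3) in the sample code. Other groups used here as a reference are the DMSO vehicle and, also at 500, 100 and 20 µg/mL for 24 h, water extracts of ginger in its dried form (Zingiberis Rhizoma, ZR) and its fresh form (Zingiberis Rhizoma Recens, ZRR). These are the forms the drug names stand for, while the protocol speaks of dried plants throughout. The gingers carry the number 2 in the code, so the extract and whatever that number marks cannot be told apart between them and PT. Each group has 3 libraries. The spread behind the p-values was estimated within groups over all 60 libraries. These also include wortmannin and water extracts of Scutellariae Radix, Coptidis Rhizoma and Zizyphi Fructus. The labels do not say that replicates came from separate cultures, so this spread between libraries may be technical.

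RNA was sequenced as mRNA libraries, and levels are given in CPM, the usual count normalised to library size, here with TMM scaling. The PT libraries held 21643751 to 36479629 estimated counts each. After a filter on low counts, 17129 genes were tested with edgeR's quasi-likelihood test. A gene was called where its Benjamini-Hochberg adjusted p was under 0.05, and ± after a log2 difference is its standard error. PT high replicate 2 stood apart from the other PT libraries. Its log2 CPM rose with log2 transcript length with a slope of 0.913, against 0.997 to 1.03 in the other 8, so that long transcripts were lower in it. Across 17007 genes the log2 difference between high and lower doses had a Spearman correlation of -0.327 with transcript length, a description over genes of the same libraries. Where a call named below is lost without this library, that is stated beside it. Of 18 epithelial and airway genes, 12 passed the filter and none was called between doses, which does not test what the cells are. NKX2-1 and the surfactant genes SFTPA1, SFTPB, SFTPC and SFTPD, which are expressed in alveolar type II cells, had at most 5 counts in any PT library. Of 12 blood cell markers 2 passed the filter, and PTPRC, the pan-leukocyte marker, had at most 1 count. Of 12 fibroblast and endothelial markers 5 passed, and no marker of either list was called. In such bulk RNA, fewer cells of a type and less RNA per cell cannot be told apart.

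NF-kB is a family of transcription factors (RELA, RELB, REL, NFKB1 and NFKB2) that inhibitors such as NFKBIA hold in the cytoplasm. Receptors for cytokines or microbial products activate the IKK kinases, which lead to the breakdown of these inhibitors. The factors then enter the nucleus, bind short DNA sites that begin with G and end with C, and switch on chemokines, adhesion proteins and their own inhibitors. In airway epithelium this response is known for drawing neutrophils and monocytes.

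The 2 largest rises and many of the other called genes belong to this system, so the DNA just before the starts of such genes is shown first. The 120 bases before the annotated start of 8 of the called genes are printed from RefSeq (build GRCh38.p14), from 5′ to 3′ on the gene's own strand. They comprise 5 CXC chemokines, the cytokine IL32 and the inhibitors NFKBIA and TNFAIP3. Capitals mark a match, on either strand, to the NF-kB consensus or to GGAATTTCC, the longest run of letters that the 200-base windows of all 5 CXC chemokines share. The consensus and this run overlap in CXCL1, CXCL2, CXCL3, CXCL5 and NFKBIA. The shared run was read from these promoters after the calls were known.
CXCL1, chromosome 4, 73869273 to 73869392, plus strand: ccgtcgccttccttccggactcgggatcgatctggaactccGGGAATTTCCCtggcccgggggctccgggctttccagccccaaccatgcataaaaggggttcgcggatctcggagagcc
CXCL2, chromosome 4, 74099196 to 74099315, minus strand: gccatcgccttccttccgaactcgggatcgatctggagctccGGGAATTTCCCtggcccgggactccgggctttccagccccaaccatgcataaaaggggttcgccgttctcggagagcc
CXCL3, chromosome 4, 74038690 to 74038809, minus strand: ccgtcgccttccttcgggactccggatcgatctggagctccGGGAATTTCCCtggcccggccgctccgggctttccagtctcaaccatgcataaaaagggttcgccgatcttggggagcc
CXCL5, chromosome 4, 73998678 to 73998797, minus strand: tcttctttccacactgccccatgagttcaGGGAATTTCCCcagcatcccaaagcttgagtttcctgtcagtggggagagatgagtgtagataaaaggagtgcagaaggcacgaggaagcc
CXCL8, chromosome 4, 73740449 to 73740568, plus strand: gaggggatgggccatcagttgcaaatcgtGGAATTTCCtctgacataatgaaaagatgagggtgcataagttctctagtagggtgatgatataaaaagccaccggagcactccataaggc
IL32, chromosome 16, 3065283 to 3065402, plus strand: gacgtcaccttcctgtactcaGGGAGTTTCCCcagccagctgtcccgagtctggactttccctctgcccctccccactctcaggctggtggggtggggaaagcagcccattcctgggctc
NFKBIA, chromosome 14, 35404750 to 35404869, minus strand: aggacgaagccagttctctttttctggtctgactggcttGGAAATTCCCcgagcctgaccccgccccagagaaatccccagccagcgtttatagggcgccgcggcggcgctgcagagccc
TNFAIP3, chromosome 6, 137867139 to 137867258, plus strand: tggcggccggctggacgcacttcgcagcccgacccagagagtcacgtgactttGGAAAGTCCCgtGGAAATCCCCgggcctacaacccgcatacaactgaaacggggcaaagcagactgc

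All 5 CXC chemokines lie on chromosome 4, with CXCL5 between CXCL1 and CXCL3. In CXCL1, CXCL2 and CXCL3 the letters around the match are nearly alike, and the match begins 79 bases before the start of CXCL1 and CXCL3 and 78 before that of CXCL2. In CXCL5 and CXCL8 it begins 91 bases before the start, and CXCL8 holds the shared run without the full consensus. Over the 200 bases before the start, the consensus was found in 21 of the 58 called-higher genes that have a promoter in the table (36.2%). It was found in 3 of 21 called-lower genes (14.3%), in 9.62% of 11747 tested genes with a promoter and in 7.83% of all 27305 promoters. The run GGAATTTCC was found in 9 of the 58 (15.5%), in none of the 21, in 0.298% of tested genes and in 0.315% of all promoters. Those 9 are CXCL1, CXCL2, CXCL3, CXCL5, CXCL8, ICAM1, OPTN, NFKBIA and MAP3K8. The 5 chemokines gave the run, so their matches are no finding. Of 5 called-higher sterol genes with a promoter, 2 held the consensus (40%) and none the run. In SOD2, TNIP1, NFKB2, IKBKE and TNFAIP2, called-higher genes of the NF-kB system, neither was found. A match describes letters only.

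The dose step from the lower doses to 500 µg/mL changed few genes, most of them upward. Of 17129 genes, 96 were called (0.56%), 72 higher (0.42%) and 24 lower (0.14%). The rises were led by the neutrophil chemokines CXCL1 and CXCL8, and the falls were small. In all 11 genes were called at least 2-fold higher and none 2-fold lower, and the median size of a called log2 difference was 0.297. Of the 72, the 3 high libraries lay above all 6 lower-dose libraries in 71, and of the 24 they lay below in 20. Among all tested genes 3.6% showed the first pattern and 3.34% the second. The same libraries gave the calls, so this separation follows largely from the choice of genes and is no separate support. Without PT high replicate 2, 52 genes were called, 43 higher and 9 lower, and 48 of them were among the 96. Of the 96, 40 are in one of 31 lists of pathway and marker genes and 56 are in none. The plot of log2 difference against adjusted p shows both groups.

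**Figure D1:**
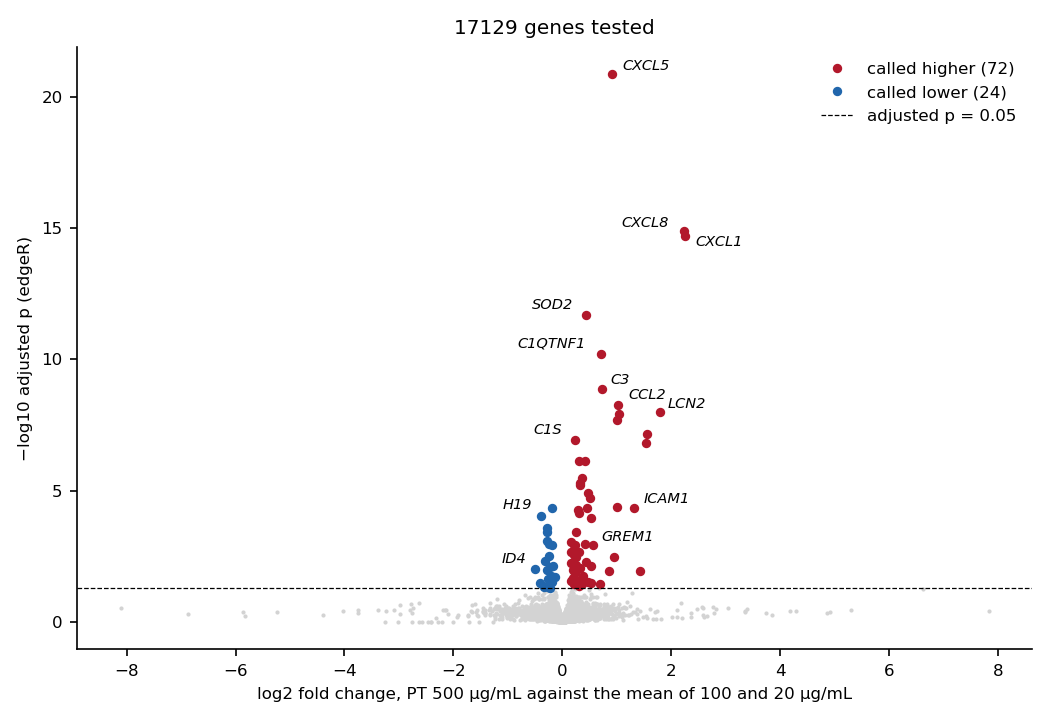
Log2 fold change of PT at 500 µg/mL against the mean of 100 and 20 µg/mL (x axis) and −log10 of the edgeR adjusted p (y axis) for each of 17129 genes, with called genes in red (72 higher) and blue (24 lower) and the dashed line at an adjusted p of 0.05. The far right of the called genes is held by CXCL1 and CXCL8, and every called fall is smaller than 2-fold; the grey points far to either side were not called.

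Chemokines, the secreted ligands of this system, rose together. Of 13 listed, 7 passed the filter, 6 rose and none fell, with a median log2 difference of 1.02 against 0.001 over all genes tested. Among all genes tested 0.42% were called higher and 0.14% lower, the shares to set beside every list count below. The lists were chosen with earlier results of these data known. Without PT high replicate 2, 6 of 7 rose as well (median 0.998). CXCL1, CXCL2 and CXCL3 are close relatives in sequence, and how the estimated counts divide reads between them is not known.

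CXCL1, a ligand of the neutrophil receptor CXCR2, was at 1.25, 0.818 and 1.65 CPM at the low dose, at 1.92, 1.86 and 1.99 CPM at the medium dose and at 7.21, 8.32 and 6.62 CPM at the high dose. The lowest high library was over 3 times the highest of the others, and the 3 medium libraries lay above the 3 low ones. The log2 difference of high against the lower doses was 2.25 ± 0.15 (edgeR adjusted p = 1.91e-15).

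CXCL8 (interleukin 8), the best known neutrophil attractant of epithelium, was at 1.51, 1.25 and 1.41 CPM, then 1.74, 2.21 and 1.54 CPM, then 7.54, 7.58 and 7.61 CPM in the same order of doses. The high libraries were nearly equal, and no medium library came near them. The log2 difference was 2.24 ± 0.15 (edgeR adjusted p = 1.33e-15).

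CXCL5, another neutrophil chemokine and in CPM the one with the most counts, was at 85.6, 86.4 and 86.9 CPM at the low dose and at 102, 110 and 106 CPM at the medium dose. It reached 183, 170 and 187 CPM at the high dose. No group overlapped another, and the log2 difference of high against the lower doses was 0.91 ± 0.04 (edgeR adjusted p = 1.38e-21).

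CCL2, which draws monocytes, was at 6.74, 5.81 and 6.90 CPM, then 9.11, 9.21 and 8.56 CPM, then 14.4, 17.8 and 14.3 CPM. The 3 doses did not overlap, and high replicate 2 was the highest. The log2 difference was 1.02 ± 0.11 (edgeR adjusted p = 5.65e-09).

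CXCL2 was at 2.50, 3.00 and 2.58 CPM, then 3.45, 3.72 and 4.22 CPM, then 6.36, 7.03 and 6.50 CPM, again with no overlap between doses (log2 difference 1.05 ± 0.12, edgeR adjusted p = 1.25e-08). CXCL3 differed from these in its lower doses, at 1.89, 1.79 and 2.06 CPM for low and 1.46, 1.90 and 1.78 CPM for medium, which overlap. Its high libraries were at 3.39, 3.65 and 3.86 CPM (log2 difference 1.00 ± 0.15, edgeR adjusted p = 4.27e-05). CCL20, a chemokine for dendritic cells and lymphocytes, was the tested member that was not called, at 0.344 CPM on average for high and 0.297 CPM for the lower doses. CXCL6, CXCL10 and CCL5 did not pass the filter, with at most 2, 0 and 8 counts in a PT high library.

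**Figure D2:**
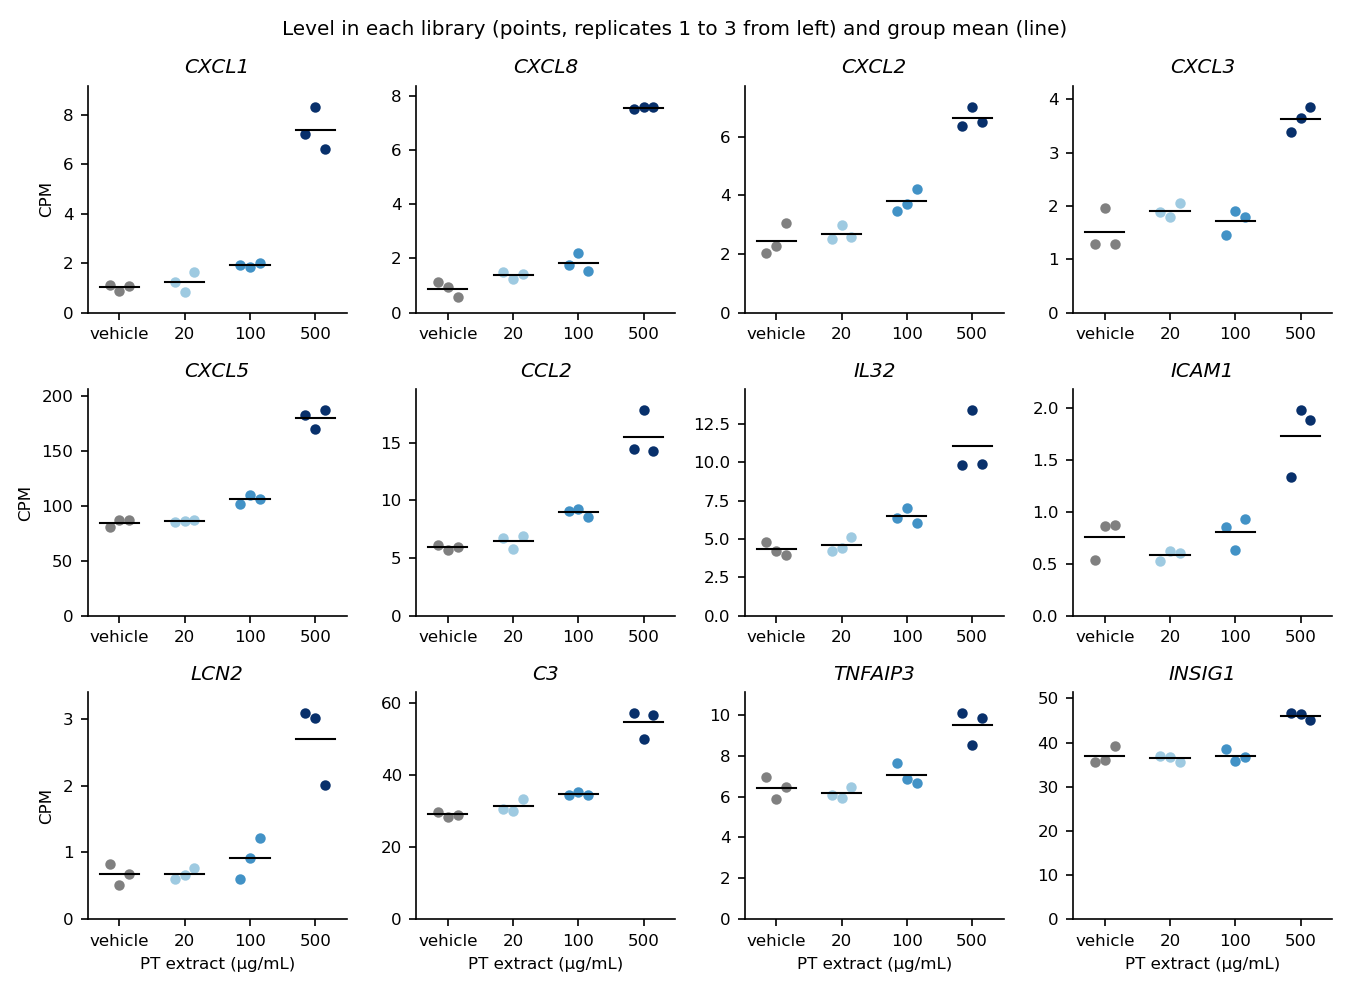
CPM (y axis, from 0) of 12 genes in each vehicle and PT library, by dose in µg/mL (x axis), with points for replicates 1 to 3 from left to right and a line at the group mean. In every panel the 3 libraries at 500 µg/mL lie above the 6 at 20 and 100 µg/mL, as for CXCL8 at 7.54 to 7.61 CPM. All 12 are called genes, so this pattern follows largely from their choice.

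Among the listed cytokines and growth factors 2 of the 6 tested rose and none fell (median 0.03, and -0.014 with the length slope in the model). Of all genes tested, 0.42% were called higher. The ligands TNFSF14 (1.43) and AREG (0.31), outside this list, were called higher too. Both calls were lost without PT high replicate 2 (edgeR adjusted p = 0.0648 and 0.944). IL32, an inducible pro-inflammatory cytokine, was at 4.24, 4.44 and 5.16 CPM at the low dose, at 6.37, 7.04 and 6.04 CPM at the medium dose and at 9.80, 13.4 and 9.89 CPM at the high dose. The doses did not overlap and high replicate 2 was the highest (log2 difference 1.00 ± 0.11, edgeR adjusted p = 2.11e-08). CSF1, the macrophage growth factor, rose by 0.19 ± 0.05 (edgeR adjusted p = 0.0273), and the call was lost in 8 of 19 alternatives, with adjusted p up to 0.102. LIF, a cytokine of the IL6 family, was at 77.3 to 89.0 CPM at the high dose and 85.3 to 88.4 CPM at the lower doses, and was not called. IL6 had at most 4 counts in any PT library.

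The listed sensors, receptors and adaptors above NF-kB did not pass the test. IRAK2, a kinase under some of these receptors that is in no list, was called higher (0.47). Its call held without PT high replicate 2 (edgeR adjusted p = 1.85e-05). Of 29 listed, 23 were tested and none was called (median -0.019, and 0.014 with the length slope in the model). IL1R1, the interleukin 1 receptor, had a log2 difference of -0.11 ± 0.09 and TNFRSF1A, the main TNF receptor, one of -0.07 ± 0.03 (edgeR adjusted p = 0.571 and 0.376). CD14, a co-receptor for lipopolysaccharide, was at 1.86, 1.90 and 2.13 CPM for high and 1.29 to 2.16 CPM for the lower doses, which overlap. TLR2 and TLR4, the receptors for bacterial lipoproteins and lipopolysaccharide, had at most 4 and 2 counts in a PT library, and LY96, the partner of TLR4, at most 1.

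Of 15 kinases and subunits, 3 rose and none fell (median 0.011), beside 0.42% of all genes tested called higher. RELB, a subunit of the non-canonical pathway, was at most at 18.6 CPM at the lower doses and at 19.1 to 26.8 CPM at the high dose (log2 difference 0.42 ± 0.08, edgeR adjusted p = 0.00112). High replicate 2 was the highest. The other calls were NFKB2, its partner (0.21 ± 0.05, adjusted p = 0.034), and the kinase IKBKE (0.30 ± 0.07, adjusted p = 0.0295). All 3 were lost without PT high replicate 2, with edgeR adjusted p of 0.236 for RELB, 0.223 for NFKB2 and 0.57 for IKBKE. The canonical subunits were not called, with RELA at 0.04 ± 0.04 and NFKB1 at 0.12 ± 0.06.

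The feedback inhibitors, some of which NF-kB itself switches on, moved less than the chemokines. Of 20 tested, 5 rose and none fell (median 0.16), and without PT high replicate 2 the count was 4 (median 0.17). Of all genes tested, 0.42% were called higher. TNFAIP3 (A20), a ubiquitin-editing enzyme, was at 5.92 to 6.49 CPM at the low dose, at 6.65 to 7.65 CPM at the medium dose and at 10.1, 8.55 and 9.85 CPM at the high dose. The doses did not overlap (log2 difference 0.53 ± 0.09, edgeR adjusted p = 0.000113).

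NFKBIA, the main inhibitor of RELA, was at 43.0 to 48.4 CPM at the lower doses and at 56.4, 57.6 and 57.0 CPM at the high dose. Its medium and low libraries overlapped (high against both, log2 difference 0.30 ± 0.06, edgeR adjusted p = 0.00227). BIRC3, an inhibitor of cell death, rose by 0.35 ± 0.05, and TNIP1, a partner of TNFAIP3, by 0.30 ± 0.04 (adjusted p = 3.22e-06 and 7.76e-07). NFKBIB rose by 0.29 ± 0.07 (edgeR adjusted p = 0.0269, and 0.933 without PT high replicate 2).

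Of 18 adhesion, survival and effector genes, 5 rose and none fell (median 0.201), and 3 rose without PT high replicate 2. The share called higher over all genes tested was 0.42%. ICAM1, the adhesion protein that holds leukocytes, was at 0.530, 0.624 and 0.605 CPM, then 0.854, 0.633 and 0.933 CPM, then 1.34, 1.99 and 1.89 CPM (log2 difference 1.31 ± 0.20, edgeR adjusted p = 4.48e-05). The high libraries lay above all others at a low level. SOD2, the mitochondrial superoxide dismutase, was at 81.6 to 87.5 CPM at the low dose, at 87.5 to 93.5 CPM at the medium dose and at 120, 117 and 119 CPM at the high dose. Its log2 difference was 0.43 ± 0.04 (edgeR adjusted p = 2.12e-12), a small change with a small spread.

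The other 3 effectors were TNFAIP2 (0.22 ± 0.04), the stress gene IER3 (0.39 ± 0.09) and the kinase MAP3K8 (0.24 ± 0.05). The last 2 were lost without PT high replicate 2, with edgeR adjusted p of 0.848 for IER3 and 0.139 for MAP3K8. PTGS2, the inducible prostaglandin synthase, was at 24.6, 23.6 and 24.3 CPM at the high dose and 20.8 to 22.8 CPM at the lower doses. Its high libraries lay above the others, and the log2 difference of 0.16 ± 0.10 was not called (edgeR adjusted p = 0.489).

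Complement and mucosal defence genes formed the next group. Of 18 tested, 5 rose and none fell (median 0.082), and the count was again 5 without PT high replicate 2 (median 0.023). The share called higher over all genes tested was 0.42%. LCN2 (lipocalin 2), which withholds iron from bacteria, was at 0.606, 0.663 and 0.766 CPM, then 0.605, 0.909 and 1.22 CPM, then 3.09, 3.00 and 2.01 CPM. High replicate 3 was the lowest of the high libraries and still above every other (log2 difference 1.79 ± 0.19, edgeR adjusted p = 1.01e-08).

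C3, the central complement protein, was at 30.7, 30.1 and 33.4 CPM at the low dose, 34.4, 35.3 and 34.5 CPM at the medium dose and 57.3, 50.2 and 56.8 CPM at the high dose (log2 difference 0.73 ± 0.07, edgeR adjusted p = 1.3e-09). The medium libraries lay just above the low ones. CFB, which forms the C3 convertase of the alternative pathway, went from 0.605 to 1.15 CPM at the lower doses to 2.43, 2.63 and 2.56 CPM (1.54 ± 0.19, adjusted p = 1.61e-07). The classical pathway proteases C1R and C1S rose by 0.32 ± 0.05 and 0.24 ± 0.03. The fibrinogen chains FGA, FGB and FGG were not called, with log2 differences of -0.06, -0.05 and -0.07. Of 22 interferon-stimulated genes tested, PSMB8, an immunoproteasome subunit, was called (0.53 ± 0.13, edgeR adjusted p = 0.0345), and the call was lost without PT high replicate 2 (adjusted p = 0.551). The strip plot of gene lists shows how far the chemokines stand from the other groups.

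**Figure D3:**
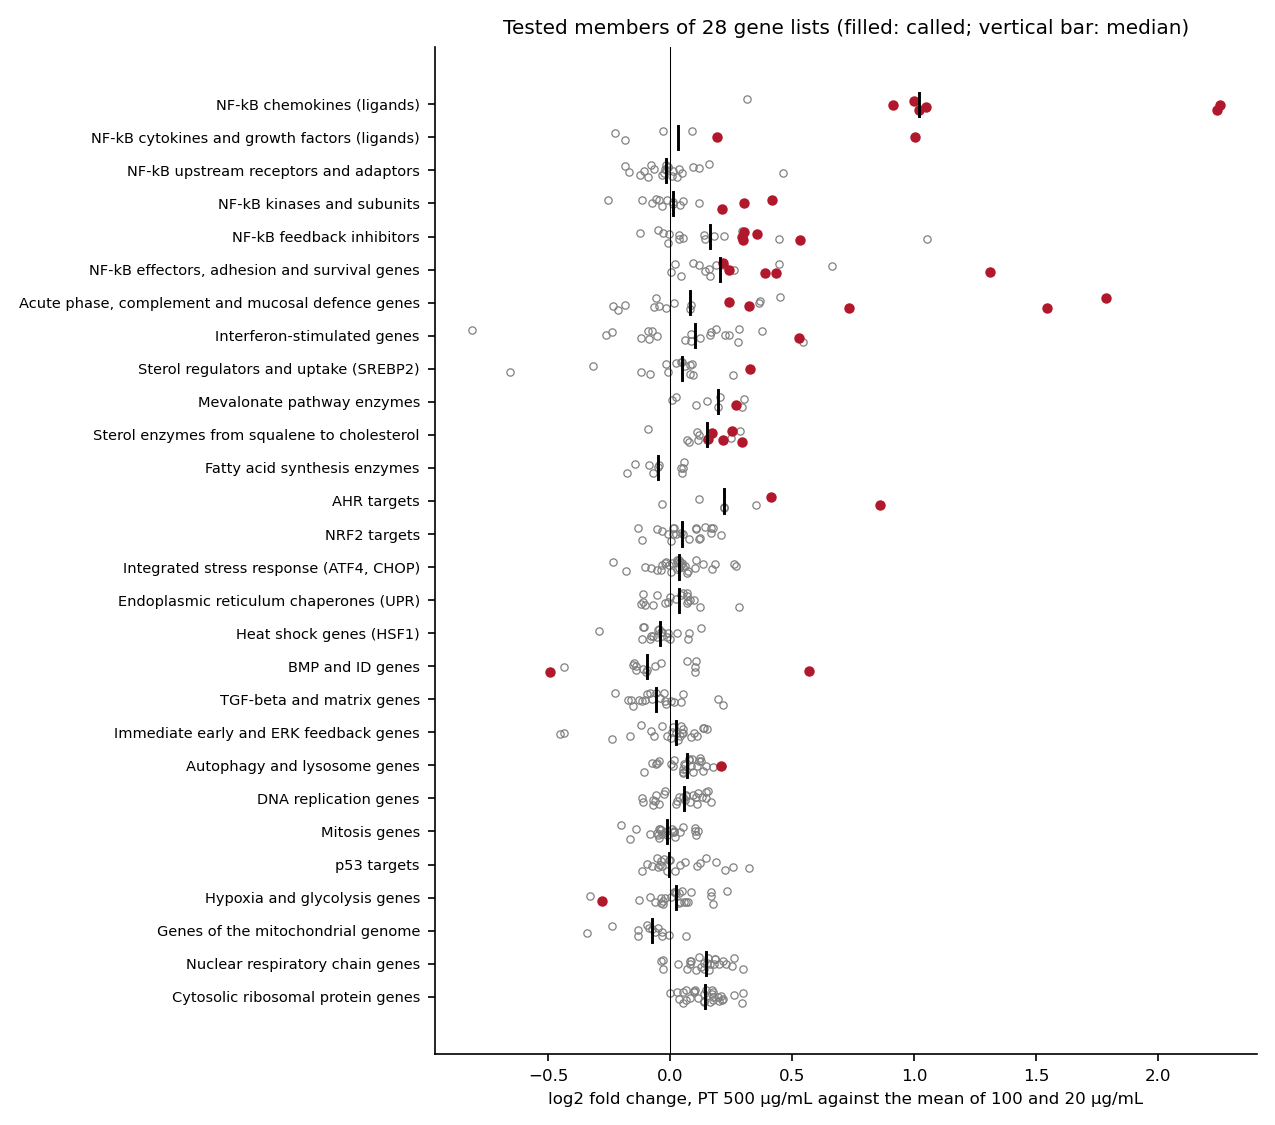
Log2 fold change of PT at 500 µg/mL against the mean of 100 and 20 µg/mL (x axis) for the tested members of 28 gene lists (rows), filled where called, with a vertical bar at each list's median. The chemokine list has its median at 1.02, while the cytosolic ribosomal protein list, at 0.144, has no called member.

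Sterol synthesis genes rose by small amounts. Cells make cholesterol from mevalonate through squalene and lanosterol, and SREBP2 switches the whole series of enzymes on when sterol is low. Of 39 genes in 3 sterol lists, all tested, 7 rose and none fell (median 0.105), beside 0.42% of all genes tested called higher. Of the 14 enzymes from squalene on, 5 rose (median 0.151), of 9 mevalonate enzymes 1 rose (0.196) and of 16 regulators 1 rose (0.046). Without PT high replicate 2 these counts were 4, 0 and 1.

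INSIG1, which retains SREBP in the endoplasmic reticulum and is itself a target, was at 35.6 to 38.5 CPM at the lower doses and at 46.7, 46.5 and 45.1 CPM at the high dose (0.33 ± 0.05, edgeR adjusted p = 5.15e-06). The medium and low libraries overlapped. LSS, which closes the sterol rings, was at 36.2 to 39.1 CPM and then 45.1, 47.6 and 45.8 CPM (0.29 ± 0.05, edgeR adjusted p = 5.51e-05).

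MSMO1, a demethylating enzyme, rose by 0.25 ± 0.04, CYP51A1, the lanosterol demethylase, by 0.17 ± 0.03, and SQLE, which oxidises squalene, by 0.15 ± 0.03. FDFT1 (squalene synthase, 0.22 ± 0.05) and MVK (mevalonate kinase, 0.27 ± 0.06) were lost without PT high replicate 2, with edgeR adjusted p of 0.745 and 0.553. HMGCS1, an early enzyme of the mevalonate pathway, had a log2 difference of 0.10 ± 0.04 and was not called (edgeR adjusted p = 0.255).

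Of 7 tested targets of the aryl hydrocarbon receptor (AHR), a sensor of plant and polycyclic compounds, 2 rose and none fell (median 0.219). Of all genes tested, 0.42% were called higher. CYP1B1 was at 54.4 to 57.3 CPM at the low dose, 58.4 to 60.6 CPM at the medium dose and 78.0, 67.3 and 84.0 CPM at the high dose, and high replicate 2 was the lowest of the high libraries (0.41 ± 0.05, edgeR adjusted p = 7.76e-07). CYP1A1 was at 0.771 to 1.15 CPM and then 1.67, 1.85 and 1.62 CPM. Its log2 difference was 0.86 ± 0.19 (edgeR adjusted p = 0.0116, and 0.114 without PT high replicate 2).

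BMP signals act through SMAD proteins and the ID genes. Of 16 genes tested, 1 rose and 1 fell (median -0.097), beside 0.42% called higher and 0.14% called lower among all genes tested. GREM1, a secreted BMP antagonist, was at 3.86 to 5.40 CPM at the lower doses and at 6.09, 7.35 and 7.57 CPM at the high dose (0.57 ± 0.11, edgeR adjusted p = 0.00118, and 0.0239 without PT high replicate 2). ID4 was at 10.5, 7.60 and 9.32 CPM at the low dose, at 6.84, 5.46 and 6.81 CPM at the medium dose and at 4.42, 5.45 and 6.58 CPM at the high dose. The medium and high libraries overlapped, and the call (-0.49 ± 0.11, adjusted p = 0.00999) was lost without PT high replicate 2 (0.0844). ID1 was not called, at 130, 184 and 146 CPM for high against 129 to 206 CPM for the lower doses.

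Several called rises lay in no list and are named partly after their values were seen. C1QTNF1, a secreted protein related to the complement C1q family, was at 9.76 to 11.7 CPM at the lower doses and at 17.7, 16.9 and 17.2 CPM at the high dose (0.70 ± 0.06, edgeR adjusted p = 6.4e-11). Its high libraries stood well clear of the others. EFNA1, a membrane ligand of Eph receptors, went from 11.2 to 13.1 CPM to 16.1, 17.5 and 17.8 CPM (0.51 ± 0.08, adjusted p = 1.85e-05). RHCG, an ammonium transporter, rose by 0.53 ± 0.11 (adjusted p = 0.00734, and 0.139 without PT high replicate 2). PDZK1IP1, a small membrane protein, rose by 1.55 ± 0.18 from 0.779 to 1.54 CPM to 2.89, 3.93 and 3.51 CPM (edgeR adjusted p = 6.72e-08). IRAK2, a kinase under the interleukin 1 and Toll-like receptors, rose by 0.47 ± 0.07, and OPTN, a ubiquitin-binding autophagy receptor, by 0.31 ± 0.05.

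The falls were smaller than 1.5-fold. H19, an imprinted long noncoding RNA, was at 92.2, 91.3 and 87.2 CPM at the low dose, at 75.3, 81.1 and 77.4 CPM at the medium dose and at 66.2, 63.5 and 61.0 CPM at the high dose. The 3 doses did not overlap (log2 difference -0.40 ± 0.06, edgeR adjusted p = 9.15e-05). ADGRG1, an adhesion receptor, was at 123 to 129 CPM, then 109 to 121 CPM, then 97.0 to 100.8 CPM (-0.28 ± 0.05, adjusted p = 0.000266). Its 3 doses did not overlap either.

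SLC2A3, the glucose transporter GLUT3, was at 34.4 to 37.7 CPM at the lower doses and at 30.4, 29.9 and 28.9 CPM at the high dose (-0.28 ± 0.05, edgeR adjusted p = 0.000866). Its medium libraries lay above its low ones, and the fall lay between 100 and 500 µg/mL. It was the called member among 26 tested hypoxia and glycolysis genes (median 0.021, and -0.003 without PT high replicate 2).

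HR, a nuclear corepressor, SLC29A3, a lysosomal nucleoside transporter, and SLC7A7, an amino acid transporter, fell by 0.28, 0.32 and 0.25 on the log2 scale, with standard errors of 0.05, 0.06 and 0.05. With only the PT libraries HR and SLC7A7 were lost (edgeR adjusted p up to 0.118 and 0.0714). SLC29A3 was lost without PT high replicate 3 and with only the PT libraries and a replicate block (edgeR adjusted p up to 0.107). Lost without PT high replicate 2 were DIO2, which activates thyroid hormone (-0.28, edgeR adjusted p = 0.272 then), HNF4A, a hepatic and gut transcription factor (-0.25, adjusted p = 0.114), NTRK3, a neurotrophin receptor (-0.26, adjusted p = 0.296), and PDE3A, a phosphodiesterase (-0.34, adjusted p = 0.752). In all 4 this library held the lowest value of the 9. With each library's length slope in the model all 4 were called, with edgeR adjusted p of 0.000221 for DIO2, 6.32e-05 for HNF4A, 0.000445 for NTRK3 and 0.000127 for PDE3A.

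Other stress and growth lists stayed without a call. No member was called among 22 NRF2 targets, 31 genes of the integrated stress response, 20 endoplasmic reticulum chaperones, 20 heat shock genes, 25 immediate early genes, 22 p53 targets, 26 replication and 25 mitosis genes. Their medians ran from -0.043 (heat shock) to 0.057 (replication). HMOX1, the NRF2 target haem oxygenase, had a log2 difference of 0.14 ± 0.06 (edgeR adjusted p = 0.32), ASNS, asparagine synthetase, one of -0.02 ± 0.05 (0.879) and HSPA1A, an HSP70, one of -0.11 ± 0.06 (0.416). Of 28 autophagy and lysosome genes, SQSTM1 (p62) was called at 0.21 ± 0.04, which was lost without PT high replicate 2 (edgeR adjusted p = 0.365). The 30 cytosolic ribosomal protein genes had a median of 0.144 and 26 nuclear respiratory chain genes one of 0.145, with none called. Without PT high replicate 2 these medians were 0.033 and 0.036, and with the length slope in the model that of the ribosomal protein genes was -0.005.

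The 2 dose steps contributed unequally. High against medium gave 30 called genes (0.175%), 28 higher (0.163%) and 2 lower (0.0117%). High against low gave 94 (0.549%), 68 higher (0.397%) and 26 lower (0.152%). These comparisons share the high libraries. Medium against low gave 3 (0.0175%), 2 higher (0.0117%) and 1 lower (0.00584%), with 413 genes at an unadjusted p under 0.05. They were CXCL5 (0.29 ± 0.05, edgeR adjusted p = 0.00599), HS1BP3 (0.25 ± 0.05, adjusted p = 0.0207) and ATOH8, a BMP target (-0.59 ± 0.10, adjusted p = 0.00599). Leaving out any one medium or low library left at most 1 call.

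ATOH8 was at 8.44, 8.69 and 9.60 CPM at the low dose, at 5.52, 6.17 and 6.12 CPM at the medium dose and at 6.44, 8.13 and 5.91 CPM at the high dose. The high libraries ran from the medium range to just under the low one, and high against the lower doses was not called (-0.10 ± 0.09). HS1BP3 was at 20.3 to 21.6 CPM, then 24.6 to 25.7 CPM, then 24.7, 26.0 and 24.7 CPM, with medium and high at about one level.

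Of the 72 called-higher genes, the medium mean lay above the low mean in 64 (88.9%, against 49.1% of all tested genes), with a median log2 difference of medium against low of 0.096. All 3 medium libraries lay above all 3 low ones in 5.2% of tested genes and below them in 5.03%. The medium libraries took part in the choice of these 72 genes. For CXCL1 the steps were 0.63 ± 0.22 from low to medium and 1.94 ± 0.18 from medium to high, and for CXCL8 0.40 ± 0.21 and 2.04 ± 0.18. For CCL2 they were 0.47 ± 0.14 and 0.79 ± 0.13, for IL32 0.49 ± 0.14 and 0.76 ± 0.13, and for CXCL2 0.49 ± 0.15 and 0.80 ± 0.13. The low to medium steps of these 5 were not called (edgeR adjusted p = 1), and all 5 medium to high steps were. For BIRC3, INSIG1 and NFKBIA the low to medium step was 0.03 ± 0.06, 0.02 ± 0.05 and -0.05 ± 0.07, and the rise lay between 100 and 500 µg/mL.

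**Figure D4:**
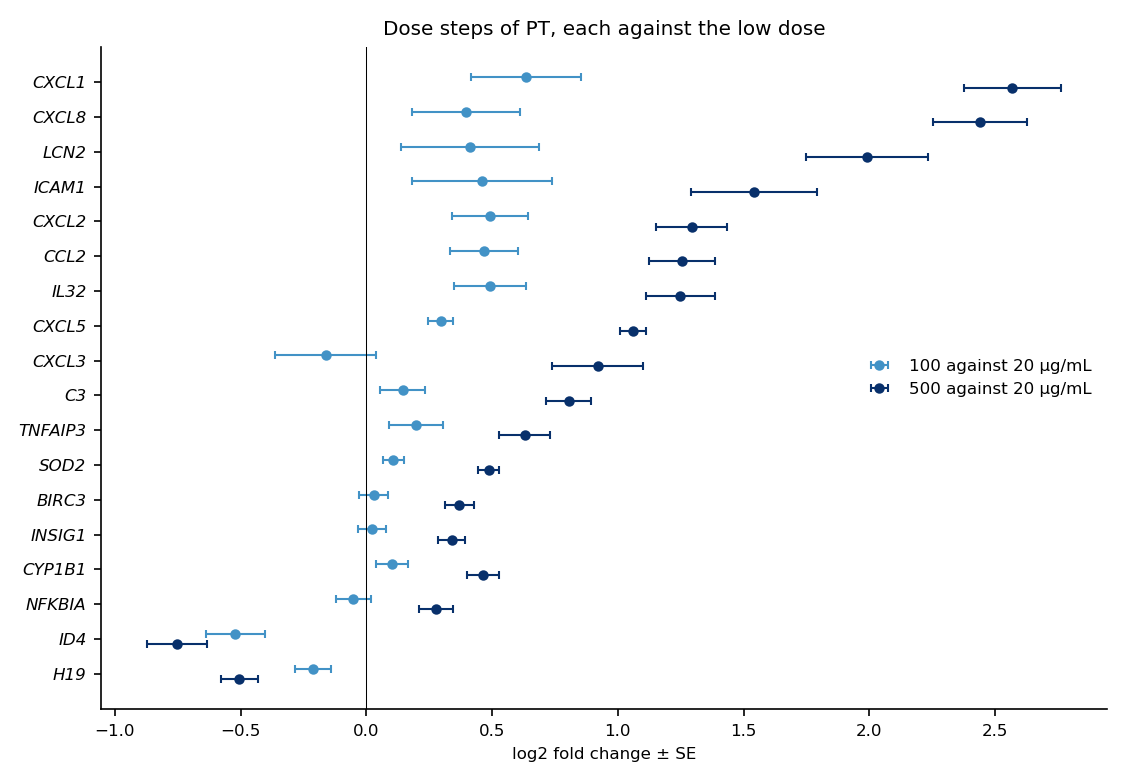
Log2 fold change ± SE (x axis) of PT at 100 µg/mL (light) and at 500 µg/mL (dark) against 20 µg/mL for 18 genes (rows). CXCL1 stands at 0.63 for 100 µg/mL and 2.57 for 500 µg/mL, while ID4 had most of its fall by 100 µg/mL (-0.52 and -0.75).

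Vehicle libraries have other first code numbers, so their levels are set beside PT as values only. CXCL8 was at 0.568 to 1.12 CPM in vehicle, CXCL1 at 0.863 to 1.12 CPM and CXCL5 at 80.5 to 87.1 CPM, near or under the low PT dose. H19 was at 79.6 to 95.8 CPM in vehicle, above all 3 high libraries. ID4, at 9.47 to 9.84 CPM, lay within the range of the low dose.

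Whether this dose step differs from that of other extracts was tested against both gingers at the same 3 doses, as a difference of differences. It differed from dried ginger for 853 genes (4.98%), 466 more positive with PT (2.72%) and 387 more negative (2.26%). It differed from fresh ginger for 449 (2.62%), 227 more positive (1.33%) and 222 more negative (1.3%). Without PT high replicate 2 these counts were 166 and 143. In both comparisons the differences correlated with transcript length across genes (Spearman -0.383 and -0.373), and both use the PT libraries.

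Of the 7 tested chemokines, 4 rose more with PT than with fresh ginger and 1 more than with dried ginger. Among all tested genes 1.33% and 2.72% were more positive with PT. The high-dose step of CXCL8 was 2.24 ± 0.15 with PT, 1.52 ± 0.16 with dried ginger and 0.05 ± 0.22 with fresh ginger. PT exceeded fresh ginger by 2.19 ± 0.26 (edgeR adjusted p = 2.22e-07), and its excess over dried ginger of 0.72 ± 0.23 was not called (adjusted p = 0.0509). CXCL1 followed with 2.25, 1.45 and 0.14, a difference of 2.12 ± 0.27 from fresh ginger (adjusted p = 7.75e-07). Its difference of 0.80 ± 0.24 from dried ginger (adjusted p = 0.0382) was lost in 14 of 26 alternatives, among them without PT high replicate 2 (0.186), with adjusted p up to 0.295.

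CXCL2 and CXCL3 did not pass the test of the difference from fresh ginger, at 0.51 ± 0.18 and 0.78 ± 0.24 (edgeR adjusted p = 0.0991 and 0.0639). CXCL2 rose with fresh ginger too, by 0.54 ± 0.13 (adjusted p = 0.00869).

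CCL2 rose by 1.02 ± 0.11 with PT and 0.91 ± 0.11 with dried ginger and had 0.10 ± 0.13 with fresh ginger (PT against fresh 0.92 ± 0.17, edgeR adjusted p = 0.00056). CXCL5 rose with all 3, by 0.91, 0.77 and 0.30, more with PT than with fresh ginger (0.62 ± 0.06, adjusted p = 2.12e-09). C3 and TNFAIP3 showed the same order, with PT above fresh ginger by 0.54 ± 0.11 (adjusted p = 0.00261) and 0.64 ± 0.13 (0.00326). For CCL2, CXCL5, C3 and TNFAIP3 the difference between PT and dried ginger was not called, at 0.11 ± 0.16, 0.14 ± 0.06, 0.13 ± 0.11 and 0.14 ± 0.13. IL32 rose by 1.00 ± 0.11 with PT and 0.40 ± 0.12 with dried ginger and had -0.36 ± 0.14 with fresh ginger (PT against fresh 1.37 ± 0.18, edgeR adjusted p = 1.5e-06). Its difference of 0.60 ± 0.17 from dried ginger (adjusted p = 0.0318) was lost in 12 of 27 alternatives, with adjusted p up to 0.366, among them without PT high replicate 2 (0.237).

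EFNA1 was more positive with PT than with either ginger. It rose by 0.51 ± 0.08 with PT and fell by 0.62 ± 0.09 with fresh ginger, while its -0.21 ± 0.08 with dried ginger was not called (edgeR adjusted p = 0.124). The differences were 0.72 ± 0.11 (edgeR adjusted p = 4.06e-05) and 1.14 ± 0.12 (3.63e-09). C1QTNF1 was likewise more positive with PT than with either (0.46 ± 0.10 and 0.81 ± 0.10). Among sterol genes, INSIG1 rose with PT and fresh ginger (0.33 and 0.38) and had -0.02 ± 0.05 with dried ginger, from which PT differed by 0.35 ± 0.07 (edgeR adjusted p = 0.000839).

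Other genes moved with the gingers and little with PT. The integrated stress response list had 18 of 31 genes more negative with PT in each comparison (medians -0.293 against dried and -0.327 against fresh). Among all tested genes 2.26% and 1.3% were more negative with PT. The list was not recounted without PT high replicate 2 or with the length slope in the model. ASNS rose by 0.56 ± 0.05 with dried and 0.50 ± 0.05 with fresh ginger and had -0.02 ± 0.05 with PT. ALDH1L2, a mitochondrial folate enzyme of that response, rose by 0.95 ± 0.14 and 0.89 ± 0.15 with the gingers and had -0.24 ± 0.15 with PT, and NIBAN1, a stress-induced protein, rose by 1.11 ± 0.12 and 0.95 ± 0.13 and had -0.16 ± 0.13.

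NR4A1, an immediate early nuclear receptor, fell by 1.12 ± 0.06 and 0.94 ± 0.06 with dried and fresh ginger and had -0.17 ± 0.05 with PT (difference from dried ginger 0.95 ± 0.07, edgeR adjusted p = 9.09e-13). H19 and SLC2A3 fell with all 3 extracts, less with PT, by 0.40 against 0.96 and 0.89 for H19 and by 0.28 against 0.87 and 0.64 for SLC2A3. CYP1B1 rose with all 3, by 0.41 with PT and by 1.12 and 0.95 with the gingers (differences -0.71 ± 0.08 and -0.54 ± 0.08, edgeR adjusted p = 8.29e-09 and 5.69e-06).

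**Figure D5:**
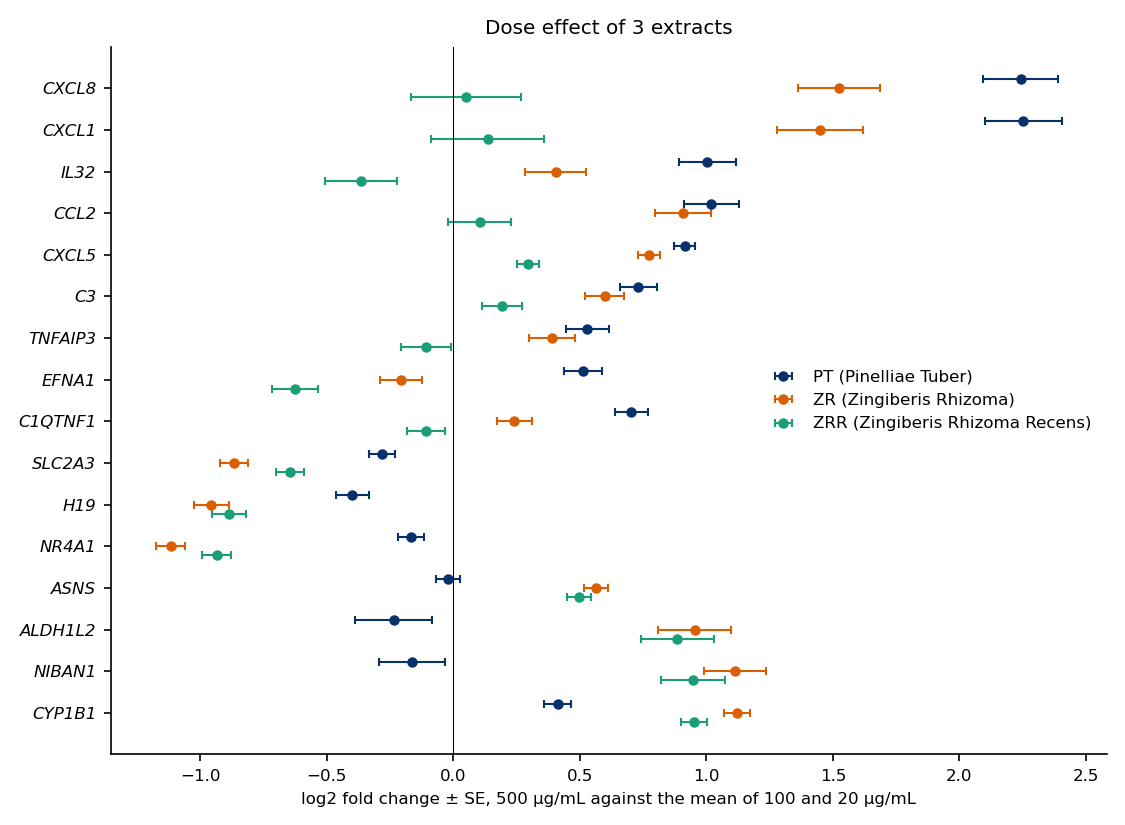
Log2 fold change ± SE of 500 µg/mL against the mean of 100 and 20 µg/mL (x axis) for 16 genes (rows) with PT (blue), dried ginger ZR (orange) and fresh ginger ZRR (green). The CXCL8 and CXCL1 rows run from fresh ginger near 0 to PT at the far right (for CXCL8 0.05, 1.52 and 2.24), while NIBAN1 stands near 1 with both gingers and at -0.16 with PT.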

How the data were processed

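The authors deposited 1 table of estimated counts per Ensembl gene (60675 genes, 269 columns), of which 60 columns matched samples here and 209 were not used. Libraries were directional mRNA libraries read as 100-base pairs, per the labels' protocols. Per the submitters' processing notes, which give names without roles, the tools were RSEM (version 1.3.3), STAR (version 2.7.3a), Trim Galore (version 0.6.5) and FastQC (version 0.11.9), with GRCh38 as the build. The sources used here give neither annotation release nor strand setting, so reads of overlapping genes may not be told apart. The vehicle is 0.1% DMSO in the sample labels and 2% in the design text. Symbols came from a current name table (41209) and GENCODE 29 (15846), and 3620 identifiers without a name held 0.0579% of counts.

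Estimated counts were rounded and fitted with edgeR 4.0.16 under R 4.3.3 (TMM, filterByExpr, robust quasi-likelihood) in all 60 libraries with 20 group means. Medium and low kept their own means, and the contrast is high minus their average. This left 40 residual degrees of freedom. No PT libraries were identical. Replicates correlated at 0.989 or above, with a chi-square per degree of freedom of at least 3.34. It was 23.1 and 16.2 between PT high replicate 2 and replicates 1 and 3, and at most 4.9 in the other PT pairs. The fit had no block on replicate numbers. A simulation of 16953 genes was made for the comparison of high with lower doses. In it edgeR found 81% of 1.5-fold changes and 98% of 2-fold changes (100 genes each), with 7 other calls. Its counts varied independently around a common mean per gene, and only genes above a minimum level were changed. It held no length slope, no deviating library such as PT high replicate 2 and no change under 1.5-fold, so it does not describe these.

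Members, lists and named genes were chosen with earlier results of these data known. Named genes are the 14 largest rises and 10 largest falls that are called, reach 1 in mean log2 CPM and do not overlap between high and lower doses, the 3 called members of smallest p in each list with at least 2, a panel of 40 genes (35 tested), and the 4 largest rises and falls of medium against low and of each ginger comparison. Some are not reported here. Alternatives were other size factors, no filter, DESeq2 1.42.0, fewer libraries, replicate blocks, a transcript length covariate, a minimum fold of 1.2 and each library left out.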

Additional observations from a re-analysis of the deposited data

Results flagged for a closer look

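Among the 6 medium and low libraries, 1 library stood far from the other 5 for 3 of the 71 genes looked at, where chance flags about 1 in 20. JMJD7 was highest in medium replicate 2 at 2.61 CPM, RELA lowest in low replicate 2 at 70.8 CPM and SDK2 highest in low replicate 1 at 3.78 CPM.

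The dose effect of PT differed from that of dried ginger, by edgeR's test of the difference, for 27 of the 71 named genes. PT minus dried ginger was above 0 on the log2 scale for 18, which were LCN2 (1.35), DBP (1.07), NR4A1 (0.95), CRABP2 (0.90), JMJD7 (0.89), CXCL1 (0.80), EFNA1 (0.72), IL32 (0.60), SLC2A3 (0.59), RHCG (0.58), H19 (0.56), C1QTNF1 (0.46), MSMO1 (0.39), INSIG1 (0.35), MVK (0.33), LSS (0.31), C1S (0.19) and SOD2 (0.19). It was below 0 for 9, which were NIBAN1 (-1.28), ALDH1L2 (-1.19), ANK2 (-1.13), ULBP1 (-1.09), CYP1B1 (-0.71), ASNS (-0.58), GREM1 (-0.49), SLC29A3 (-0.46) and LIF (-0.25). The call held in every alternative run for 15 of the 27. It was lost without PT high replicate 2 for CRABP2, CXCL1, GREM1, IL32, JMJD7, LIF, MVK, RHCG and SOD2, and C1S, LCN2 and SLC29A3 lost it in other alternatives.

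Against fresh ginger 32 of the 71 named genes differed by the same test. PT minus fresh ginger was above 0 for 22, which were CXCL8 (2.19), CXCL1 (2.12), LCN2 (1.62), IL32 (1.37), EFNA1 (1.14), CCL2 (0.92), CRABP2 (0.91), C1QTNF1 (0.81), NR4A1 (0.77), RHCG (0.71), DBP (0.68), TNFAIP3 (0.64), CXCL5 (0.62), C3 (0.54), H19 (0.49), RELB (0.45), NFKBIA (0.43), TNIP1 (0.38), SLC2A3 (0.36), BIRC3 (0.29), SOD2 (0.28) and C1S (0.25). It was below 0 for 10, which were ALDH1L2 (-1.12), NIBAN1 (-1.11), SDK2 (-0.92), TIAF1 (-0.92), ULBP1 (-0.88), ANK2 (-0.82), CYP1B1 (-0.54), ASNS (-0.52), SLC29A3 (-0.49) and SLC7A7 (-0.30). The call held in every alternative run for 24 of the 32. It was lost without PT high replicate 2 for ANK2, CRABP2, DBP, RELB, RHCG, SDK2 and TIAF1, and BIRC3 lost it without ZRR high replicate 1.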

How the results depend on the processing

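No called direction of a named gene was reversed in any alternative, while medians of lists near 0 changed sign, as for ribosomal protein genes (0.144, and -0.005 with the length slope). Of 45 named genes called for high against the lower doses, 25 stayed called in all 19 alternatives other than the minimum fold, among them the 6 chemokines, IL32, ICAM1, LCN2, C3 and TNFAIP3. The 96 calls became 764 with no filter on low counts, 179 with each library's length slope in the model and 185 with slope and replicate block. With only the 9 PT libraries they became 55, of which 47 were among the 96. In the same 9 libraries with medium and low as 1 group they became 60, of which 52 were among the 96. Against a minimum fold of 1.2, 14 genes were called, all higher, and 120 were called by DESeq2. With 1 library left out they ran from 52 (PT high replicate 2) to 111 (PT high replicate 1).

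In the same order of no filter, length slope, and length slope with block, high against medium (30) became 213, 82 and 84, high against low (94) 729, 175 and 177, medium against low (3) 65, 7 and 8, and PT against dried ginger (853) 2520, 357 and 373. PT against fresh ginger (449) became 1834 with no filter. DESeq2 gave 47 for high against medium, 5 for medium against low, 1418 for dried and 729 for fresh ginger. With only the libraries concerned, high against low had 52 calls, or 106 with the block, and medium against low 0 (with or without the block). In the same way dried ginger had 166, or 113 with the block, and fresh ginger 374, or 1736 with the block. The 0 stands beside 3 calls in all libraries and 5 by DESeq2.

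With 1 library left out, high against medium ran from 24 to 30, high against low from 53 (PT high replicate 2) to 96, with 57 without PT low replicate 1 or 2, and medium against low from 0 to 3. Dried ginger ran from 166 (PT high replicate 2) to 1695 (ZR low replicate 2), and fresh ginger from 143 (PT high replicate 2) to 835 (ZRR low replicate 1). The dried ginger count also moved by over 1.5 times without ZR high replicate 1 (220), 2 (536) or 3 (475), ZR medium replicate 1 (421) or 3 (550), ZR low replicate 1 (1582) or 3 (332), PT medium replicate 1 (412) and PT low replicate 1 (496) or 2 (565). The fresh ginger count did so without ZRR high replicate 1 (275), 2 (294) or 3 (183), ZRR medium replicate 2 (285), ZRR low replicate 2 (258), PT high replicate 1 (730) and PT medium replicate 1 (278). Without the 5 libraries of lowest length slope, an alternative added after seeing the data, the ginger counts were 258 and 248 and that of high against the lower doses 79. The cause was not tested.

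Among the 9 PT libraries replicate numbers showed no clear pairing. Deviations of 9 same-numbered pairs correlated at -0.0322 to 0.12, and 4 of 9 libraries correlated best with their own number. The ginger libraries were not checked in this way. With only the libraries concerned, the block moved the fresh ginger count from 374 to 1736. The replicate block in all libraries gave 95, 30, 94, 3, 781 and 430 calls in the order high against lower, medium and low, medium against low, dried and fresh ginger. At these depths genes at about 1 CPM or less at the lower doses, such as ICAM1 and CYP1A1, rest on few counts.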
